A study of Mus musculus with 14 samples.

Results

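The 10 immediate early genes Fos, Fosb, Jun, Junb, Atf3, Egr1, Nr4a1, Ier2, Ier3 and Sik1 were followed by name through bulk RNA-seq counts and through nuclei of the muscularis, the muscle coat of the gut wall. They are 10 of the 40481 genes counted, and all 10 passed the filter on low counts. The series compared C57BL/6 mice labelled "Carmn iKO" (KO here) with mice labelled "WT mTmG" (WT here). Carmn encodes a smooth muscle lncRNA, a transcript with no protein product, and mTmG is a fluorescent Cre reporter allele that the label gives for the WT mice. Which Cre and which part of Carmn were used, and whether the KO mice also carried the reporter, are not given by the sources at hand, nor are age and treatment. The 12 bulk libraries fall into 4 groups of 3, named by genotype, tissue and tag (KO colon m1, t4 and t6, WT colon t1, t6 and t7, KO jejunum m1, t1 and t4, WT jejunum t1, t6 and t7). A KO and a WT library of nuclei were made from colon. Nothing in the labels says whether the 3 libraries of a group came from separate mice, so p-values measure the spread between these libraries.

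Immediate early genes are transcribed within minutes of a stimulus, without new protein synthesis, by factors already bound near their start sites. Serum response factor with its ternary complex partners and CREB, which binds the cyclic AMP response element, carry signals from MAP kinases, calcium and cyclic AMP to them. In smooth muscle they are known to respond to stretch, contractile agonists and growth factors. Fos, Fosb, Jun and Junb encode subunits of the dimeric factor AP-1, and Atf3 encodes a related leucine zipper protein that often acts as a repressor. Egr1 is a zinc finger factor, Nr4a1 an orphan nuclear receptor, Ier2 a nuclear regulator of transcription, Ier3 a regulator of survival and stress signalling, and Sik1 a kinase that restrains CREB coactivators.

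The bulk libraries held between 24254905 and 44315104 counts. The targeted gene did not verify the bulk labels. Carmn ranged from 304 to 718 CPM in KO colon, 171 to 352 in WT colon, 817 to 996 in KO jejunum and 206 to 326 in WT jejunum. It had a mean of 494 ± 209 CPM (counts scaled to library size with TMM factors) in KO colon and 258 ± 90.2 in WT colon, and 908 ± 89.3 against 257 ± 62.0 in jejunum (SD, n = 3 each). The log2 fold changes of Carmn were 0.94 for colon and 1.82 for jejunum (edgeR adjusted p = 0.234 and 0.0646). Reads outside a deleted part would not show a deletion, and that part is not known here. In the nuclei Carmn was lower in the KO library, at 220 CPM of UMIs (unique molecular identifiers) against 661. Every direction given below for bulk tissue therefore rests on libraries labelled KO. The smooth muscle markers Acta2, Myh11, Tagln, Cnn1, Des, Actg2, Lmod1 and Synpo2 summed to 33120 to 43910 CPM in KO colon and 46980 to 68120 in WT colon, and to 41730 to 88910 CPM in KO jejunum and 37740 to 41400 in WT jejunum. They were thus lower in KO colon and higher in KO jejunum, without overlap in either tissue. In jejunum KO t1 (41730 CPM) and WT t6 (41400) nearly met, KO t4 was at 44630 and KO m1 at 88910. Fibroblast, macrophage, epithelial and nerve markers were present too. KO colon t4 and KO jejunum m1 stood apart from the others on the first 2 principal components.

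In both tissues most of the 10 genes had higher mean levels in the libraries labelled KO, and the spread between KO libraries was wide. Sik1 was the member that passed the test across all genes (edgeR quasi-likelihood test, Benjamini-Hochberg adjusted p below 0.05), in colon and in jejunum, both times higher in KO. That is 1 of 10 members in each tissue, where 0.388% of 20886 genes were called in colon and 0.215% in jejunum. The log2 fold change was above 0 for 9 of 10 members in colon, with a median of 1.38 against 0.004 over all genes tested. In jejunum it was above 0 for 9 of 10, with a median of 1.41 against 0.018. KO and WT values did not overlap, with KO higher, for 6 of 10 members in colon (Jun, Junb, Egr1, Ier2, Ier3 and Sik1), a pattern that 8.79% of all genes showed. In jejunum this held for 7 of 10 (Fos, Fosb, Junb, Atf3, Ier2, Ier3 and Sik1), against 11% of all genes. In bulk tissue, more or fewer cells of a type and more or less RNA per cell cannot be told apart.

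**Figure D1:**
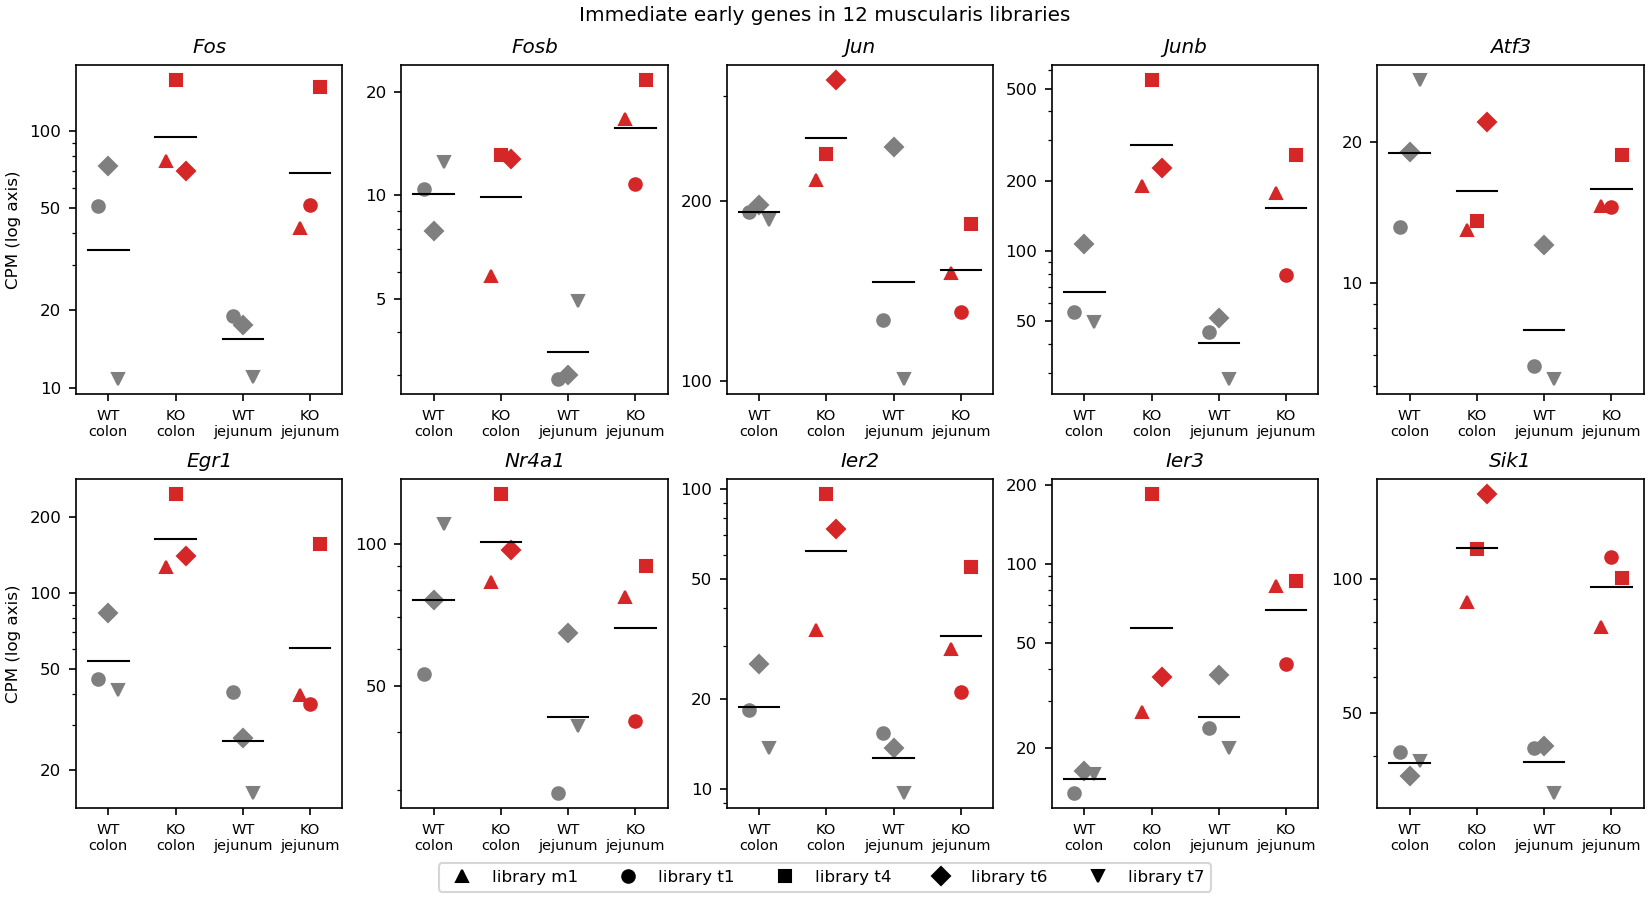
CPM of each immediate early gene (log axis) in the 12 bulk libraries, by group; the marker shape is the tag of the library and the black bar the geometric mean of 3 libraries. Sik1 lay between 33.0 and 42.1 CPM in all 6 WT libraries and between 78.1 and 155 in all 6 libraries labelled KO.

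Promoter sequences show what the members carry just before their start sites. RefSeq sequences of GRCm38.p6 were used for 7 members (Fos, Fosb, Jun, Junb, Atf3, Nr4a1 and Ier3), and 250 bases upstream of each start were searched on both strands. Egr1 was left out by rule, and no sequence was found for Ier2 or Sik1. Sites farther upstream than these 250 bases were not searched. The full cyclic AMP response element TGACGTCA was in 0 of 7, and in 1.55% of 32817 promoters of the same length. The CArG box, which binds serum response factor, was in 0 of 7 (1.47% of all), and the AP-1 site TGANTCA in 0 of 7 (6.75% of all). The shorter TGACG, the core of the cyclic AMP response element and searched after the full site gave no match, was in 5 of 7 and in 17.7% of all promoters. It overlaps TGACGTCA wherever that occurs. The EGR site GCGNGGGCG was in 2 of 7 (Fosb and Nr4a1; 4.7% of all), and TATAAA was in Fos alone (12.4% of all). A match is a description of letters and shows no binding.

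Promoters of 5 members are given 5′ to 3′ on the strand of the gene, to compare members with several matches, 1 match and none; capitals mark TGACG or its reverse complement. On GRCm38.p6 they lie at chr12:85473640-85473889 (Fos, plus strand), chr7:19310046-19310295 (Fosb, minus strand), chr8:84978749-84978998 (Junb, minus strand), chr15:101266596-101266845 (Nr4a1, plus strand) and chr17:35821463-35821712 (Ier3, plus strand).
Fos: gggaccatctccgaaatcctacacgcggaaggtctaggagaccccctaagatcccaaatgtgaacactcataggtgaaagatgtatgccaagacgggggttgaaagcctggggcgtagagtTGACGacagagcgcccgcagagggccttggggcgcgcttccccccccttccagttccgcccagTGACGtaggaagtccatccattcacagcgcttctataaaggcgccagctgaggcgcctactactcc
Fosb: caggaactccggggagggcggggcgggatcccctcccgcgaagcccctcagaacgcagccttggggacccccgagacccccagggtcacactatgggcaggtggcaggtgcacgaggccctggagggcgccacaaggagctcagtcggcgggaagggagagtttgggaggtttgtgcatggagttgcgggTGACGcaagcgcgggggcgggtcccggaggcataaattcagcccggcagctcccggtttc
Junb: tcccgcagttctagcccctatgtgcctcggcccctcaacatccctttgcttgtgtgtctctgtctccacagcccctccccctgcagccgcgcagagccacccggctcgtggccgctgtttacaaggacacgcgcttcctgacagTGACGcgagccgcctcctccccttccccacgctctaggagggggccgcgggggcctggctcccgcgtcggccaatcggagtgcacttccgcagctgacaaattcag
Nr4a1: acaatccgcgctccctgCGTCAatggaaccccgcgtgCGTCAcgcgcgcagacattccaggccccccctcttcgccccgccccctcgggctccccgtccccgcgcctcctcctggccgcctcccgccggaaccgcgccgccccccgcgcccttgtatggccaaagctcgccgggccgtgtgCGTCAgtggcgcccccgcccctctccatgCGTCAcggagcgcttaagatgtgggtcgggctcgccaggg
Ier3: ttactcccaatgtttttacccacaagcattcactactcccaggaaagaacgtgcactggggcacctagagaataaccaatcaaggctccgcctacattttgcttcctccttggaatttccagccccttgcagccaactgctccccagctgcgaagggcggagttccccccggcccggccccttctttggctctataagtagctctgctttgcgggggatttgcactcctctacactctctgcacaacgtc

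The Fos match nearest the start begins 66 bases before it, and those of Fosb and Junb begin at 60 and 106 bases. Nr4a1 holds 4 matches, beginning 233, 213, 69 and 40 bases before its start, and Ier3 and Jun hold none. In Fos the TATAAA begins 33 bases before the start. Sik1, the member called in both tissues, lies on chromosome 17 (31844250 to 31855804, minus strand, GRCm38), with 5133 exonic bases.

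Sik1, the kinase that holds CREB coactivators in the cytoplasm, had 88.8, 117 and 155 CPM in KO colon m1, t4 and t6, and 40.9, 36.0 and 38.9 in WT colon t1, t6 and t7. The lowest KO library was above 2 times the highest WT library in these values, and the WT libraries lay close together. The log2 fold change was 1.64 (standard error 0.22, edgeR adjusted p = 0.0176). In jejunum Sik1 had 78.1, 112 and 101 CPM in KO m1, t1 and t4, and 41.7, 42.1 and 33.0 in WT t1, t6 and t7. Its log2 fold change there was 1.32 (standard error 0.21, edgeR adjusted p = 0.0419), again with no overlap. Both calls were close to the threshold. In colon the adjusted p was 0.0518 without KO colon t6, 0.0889 without WT colon t1, 0.0655 without WT colon t6 and 0.123 when the 6 colon libraries were fitted alone, and in jejunum the call was lost in 10 of 21 alternatives (adjusted p up to 0.179).

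Among the AP-1 subunits, Junb had the largest difference in colon. It had 191, 545 and 228 CPM in KO m1, t4 and t6 against 55.0, 108 and 49.8 in WT t1, t6 and t7. The groups did not overlap, and KO t4 was far above the other KO libraries. The log2 fold change was 2.18 (standard error 0.53, edgeR adjusted p = 0.116) and 1.57 without KO t4. In jejunum Junb had 178, 79.0 and 260 CPM in KO m1, t1 and t4 and 45.1, 51.7 and 28.1 in WT t1, t6 and t7, a log2 fold change of 2.05 (standard error 0.52, adjusted p = 0.143 by edgeR). The jejunum groups were apart as well, with the smallest gap at KO t1. Exons of Junb share 173 bases with Prdx2, a peroxidase gene on the opposite strand. Whether the counting used strand is not known from the sources at hand. Prdx2 itself was at 54.4 to 106 CPM, with log2 fold changes of -0.19 in colon and -0.05 in jejunum.

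Fos, the partner of Jun in the classical AP-1 dimer, had 76.6, 158 and 69.8 CPM in KO colon m1, t4 and t6 and 51.1, 73.4 and 10.8 in WT colon t1, t6 and t7. These groups overlapped, since WT t6 exceeded KO t6, and WT t7 was far below the other WT libraries. The colon log2 fold change of 1.17 (standard error 0.66) did not pass the test (edgeR adjusted p = 0.461). In jejunum Fos had 41.7, 51.7 and 149 CPM in KO m1, t1 and t4 and 19.01, 17.5 and 10.98 in WT t1, t6 and t7. The jejunum groups were apart, with a log2 fold change of 2.35 (standard error 0.69, edgeR adjusted p = 0.190), which was 1.55 without KO t4.

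Fosb, a Fos relative with a short isoform that accumulates on repeated stimulation, differed by tissue in its values. In colon it had 5.82, 13.1 and 12.8 CPM in KO m1, t4 and t6 and 10.4, 7.86 and 12.5 in WT t1, t6 and t7. The ranges overlapped fully, with a log2 fold change of 0.04 (standard error 0.37). In jejunum it had 16.7, 10.8 and 21.7 CPM in KO m1, t1 and t4 and 2.91, 3.001 and 4.93 in WT t1, t6 and t7. The jejunum groups were far apart, with a log2 fold change of 2.18 (standard error 0.38) and an edgeR adjusted p of 0.0527, just outside the threshold. Fosb was called in jejunum in 6 of 21 alternatives, among them the unfiltered table (adjusted p = 0.0321) and the fit without KO colon t4 (0.0326).

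Jun, the most abundant member per length in WT tissue, had 217, 240 and 319 CPM in KO colon m1, t4 and t6 and 192, 198 and 186 in WT colon t1, t6 and t7. The colon groups did not overlap, though the log2 fold change was only 0.43 (standard error 0.30, edgeR adjusted p = 0.549). In jejunum the KO values (131 to 183 CPM) lay inside the WT range (101 to 246), with a log2 fold change of -0.03. Jun shares 232 exonic bases with the antisense gene Junos, which stayed at 6.90 CPM or less.

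Atf3, which is induced by many kinds of stress, had overlapping groups in colon, at 12.98, 13.6 and 22.1 CPM in KO m1, t4 and t6 and 13.2, 19.02 and 27.2 in WT t1, t6 and t7. Its colon log2 fold change of -0.29 (standard error 0.33) was the only one below 0 there. In jejunum Atf3 had 14.6, 14.6 and 18.7 CPM in KO m1, t1 and t4 against 6.63, 12.03 and 6.21 in WT t1, t6 and t7. These groups were apart, with a log2 fold change of 0.94 (standard error 0.34, edgeR adjusted p = 0.263).

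Egr1 had 127, 248 and 140 CPM in KO colon m1, t4 and t6 and 45.6, 84.0 and 41.3 in WT colon t1, t6 and t7. No WT library reached the KO range, and the log2 fold change was 1.59 (standard error 0.59, edgeR adjusted p = 0.247). Egr1 in jejunum had 39.4, 36.3 and 157 CPM in KO m1, t1 and t4 and 40.7, 26.7 and 16.1 in WT t1, t6 and t7. A single library, KO t4, carried the jejunum difference: the log2 fold change was 1.48 with it and 0.44 without it. Nr4a1, an orphan receptor induced with Egr1 by many stimuli, overlapped between genotypes in both tissues. It ranged from 83.0 to 128 CPM in KO colon and from 52.9 to 110 in WT colon, and its log2 fold changes were 0.37 (standard error 0.36) and, in jejunum, 0.63 (standard error 0.36).

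Ier2 had 33.8, 96.0 and 73.5 CPM in KO colon m1, t4 and t6 and 18.3, 26.2 and 13.7 in WT colon t1, t6 and t7. The log2 fold change was 1.80 (standard error 0.44, edgeR adjusted p = 0.116), and the call was gained (adjusted p = 0.0452) without KO m1, the lowest KO library. In jejunum Ier2 ranged from 21.02 to 55.1 CPM in KO and from 9.70 to 15.4 in WT, with a log2 fold change of 1.44 (standard error 0.43, adjusted p = 0.195 by edgeR). Both tissues thus showed Ier2 values without overlap.

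Ier3 had the largest colon fold change of the 10 genes, and it rested on KO colon t4. It had 27.3, 185 and 37.3 CPM in KO m1, t4 and t6 and 13.4, 16.3 and 15.8 in WT t1, t6 and t7. The log2 fold change was 2.46 (standard error 0.65, edgeR adjusted p = 0.141) with all libraries and 1.09 without KO t4. The groups did not overlap in either fit. In jejunum Ier3 had 82.9, 41.7 and 86.5 CPM in KO m1, t1 and t4 against 23.8, 37.9 and 19.9 in WT t1, t6 and t7, with a log2 fold change of 1.37 (standard error 0.62, adjusted p = 0.380 by edgeR). KO t1 and WT t6 nearly met.

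**Figure D2:**
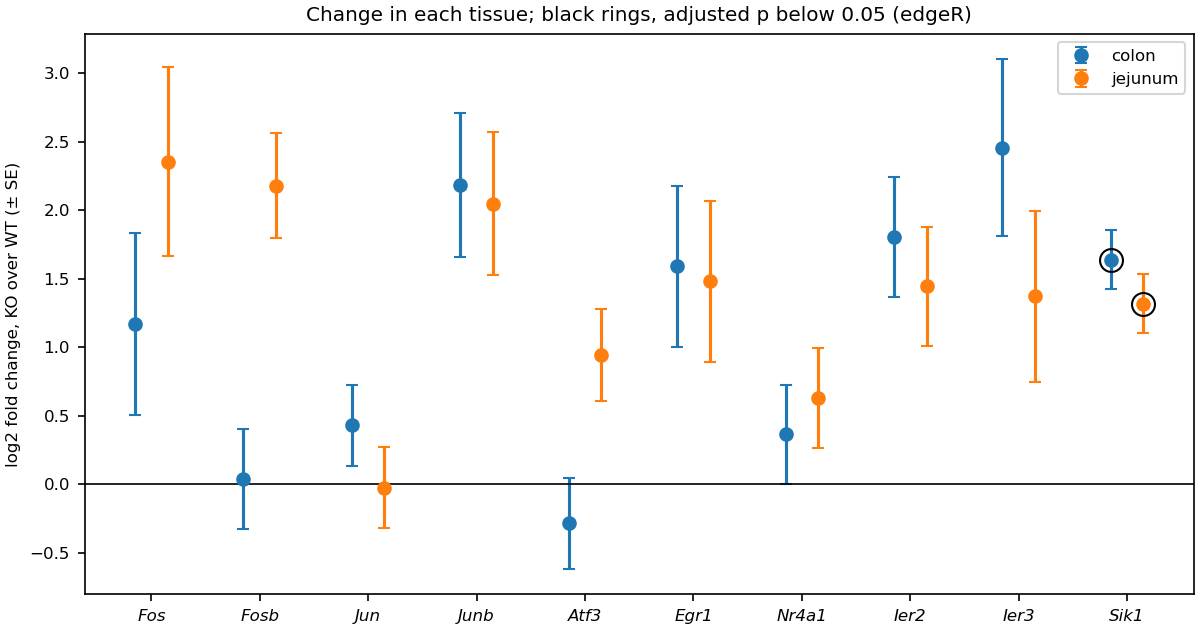
Log2 fold change of each member, KO over WT, with its standard error, in colon (blue) and jejunum (orange); black rings mark adjusted p below 0.05. Sik1 has the smallest standard errors (0.22 and 0.21) and the only rings, while Junb (2.18 and 2.05) and Ier3 in colon (2.46) have larger changes with wider bars.

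DESeq2, run on the same genes, called 4 members in colon (Junb, Ier2, Ier3 and Sik1) and 5 in jejunum (Fos, Fosb, Junb, Ier2 and Sik1), all higher in KO. It called 4.6% of all genes in colon and 3.85% in jejunum, where edgeR called 0.388% and 0.215%. The share of mitochondrial counts moved with genotype in both tissues. It was 0.622% to 0.754% in KO colon against 1.55% to 2.28% in WT colon, and 1.17% to 2.07% in KO jejunum against 2.71% to 3.59% in WT jejunum. The 7 macrophage markers summed to 490 to 1193 CPM in KO jejunum and 147 to 337 in WT jejunum, and to 345 to 814 and 305 to 459 CPM in KO and WT colon. The 6 pericyte or vascular mural markers summed to 1777 to 3175 CPM in KO jejunum and 3826 to 5208 in WT jejunum, and the 8 enteric neuron markers to 402 to 503 and 521 to 644 CPM there. Skeletal muscle markers were also lower in KO without overlap in both tissues (4 markers, at most 87.8 CPM in KO and 128 in WT), and mast cell markers in colon (3 markers, at most 0.760 and 1.79 CPM). With smooth muscle in both tissues, these are the marker lists whose sums did not overlap between genotypes. The 7 epithelial markers summed to 1047 to 2359 CPM in KO colon and 78.9 to 3364 in WT colon. The part of these in the results was not tested.

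The change in jejunum was set against the change in colon in the same fit. No member passed that test, and edgeR called 0 of 20886 genes (0%; 869 at an unadjusted p below 0.05), while DESeq2 called 0.177% and none of the 10. The widest gap was that of Fosb, whose log2 change was 2.14 larger in jejunum (standard error 0.52, edgeR adjusted p = 0.937, unadjusted 0.00166). Atf3 followed at 1.23 (standard error 0.47, edgeR adjusted p = 0.941). Ier3 had the largest gap in the other direction, at -1.08 (standard error 0.87), and Sik1 differed by -0.32 (standard error 0.30).

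Between the WT tissues, 8 of 10 members had lower mean levels in jejunum than in colon, and none passed the edgeR test, which called 1.56% of all genes. Fosb had a log2 difference of -1.50 (standard error 0.38, adjusted p = 0.0807 by edgeR), Atf3 of -1.25 (standard error 0.34, adjusted p = 0.105 by edgeR) and Egr1 of -1.03 (standard error 0.58, adjusted p = 0.502 by edgeR). These 3 of 10 members were lower in jejunum without overlap, against 11.2% of all genes. DESeq2 called Fosb and Atf3 (2 of 10, against 5.55% of all genes). Ier3 stood the other way, at 19.9 to 37.9 CPM in WT jejunum and 13.4 to 16.3 in WT colon, with a log2 difference of 0.84 (standard error 0.62, adjusted p = 0.650 by edgeR). Sik1 was near equal, with a log2 difference of 0.01 (standard error 0.21).

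Levels of different genes were compared per kilobase of exon (GENCODE M21, GRCm38). In WT colon Jun led, at 60.2 ± 1.75 CPM per kilobase (SD, n = 3), followed by Junb at 30.8 ± 13.9, Nr4a1 at 22.7 ± 8.21 and Fos at 19.2 ± 13.5. Ier3 (13.4 ± 1.37), Ier2 (12.7 ± 4.16) and Egr1 (12.7 ± 5.24) came next, then Atf3 (9.19 ± 3.26) and Sik1 (7.52 ± 0.47). Fosb was far lower, at 1.65 ± 0.37. Apart from the gaps around Jun and Fosb, neighbours in this order were within the sum of their SDs. In KO colon Junb led, at 140 ± 84.5, above Jun at 81.1 ± 16.8 and Ier3 at 73.6 ± 78.2 CPM per kilobase, and these neighbours were within their SDs as well.

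The members varied together across libraries. The mean over the 10 genes of log2 CPM, each centred on its own mean, was highest in KO colon t4 (1.33), KO jejunum t4 (0.963) and KO colon t6 (0.840), and lowest in WT jejunum t7 (-1.25) and t1 (-0.926). WT colon t6 (-0.009) lay above KO jejunum t1 (-0.095), so the genotypes were apart within each tissue but not across both. By tag, this mean had the same order in both tissues: t6, t1 and t7 from high to low in WT (jejunum t6 at -0.63), and t4 above m1 in KO (0.309 in colon and 0.269 in jejunum for m1). Whether same-tag libraries share a mouse is not known from the labels. Over the 12 libraries, Junb followed the mean of the other 9 members most closely (Pearson r = 0.967), then Ier2 (0.961) and Egr1 (0.878). Atf3 (0.518) and Jun (0.587) followed it least. These correlations are a description: the 12 points share 4 groups, and genotype and tissue both enter them.

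Of 14271 other genes whose average log2 CPM was 1 or more, the 5 whose pattern over the 12 libraries was most like this mean were Myc (r = 0.963), Mcl1 (0.949), Vsir (0.947), Ndel1 (0.943) and Irak3 (0.941). Myc encodes a growth-promoting transcription factor, Mcl1 an inhibitor of apoptosis, Vsir an immune checkpoint protein, Ndel1 a dynein regulator and Irak3 an inhibitor of interleukin-1 and Toll-like receptor signalling. Myc had 21.1, 61.7 and 28.1 CPM in KO colon m1, t4 and t6 and 14.7, 14.4 and 14.01 in WT colon t1, t6 and t7. In jejunum it had 24.5, 20.2 and 41.2 in KO m1, t1 and t4 and 11.1, 12.4 and 9.16 in WT t1, t6 and t7. Its groups did not overlap in either tissue, with KO higher, a pattern of 8.79% of all genes in colon and 11% in jejunum. KO t4 was the highest in both. Myc was picked by its likeness to the mean of the members over these same libraries, so neither pattern is separate support. The log2 fold changes of Myc were 1.36 in colon and 1.396 in jejunum (edgeR adjusted p = 0.144 and 0.152), and none of the 5 genes passed the test in either tissue.

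Relatives of the members were read from lists, with counts by the same edgeR test. It called 0.388% of all genes in colon, 0.215% in jejunum and 1.56% between the WT tissues. The lists were chosen with earlier results of these data known, so their counts are a description. Of 9 AP-1 relatives, none passed in colon and 1 in jejunum. This was Maff, a small MAF protein, which rose from 6.45 ± 2.03 to 136 ± 86.5 CPM (log2 fold change 4.40, standard error 0.53, edgeR adjusted p = 0.0131). Maff was also lower in WT jejunum than in WT colon (log2 difference -2.24, edgeR adjusted p = 0.0482). The median log2 fold change of the 9 was 0.79 in colon and 0.45 in jejunum, and Jund, the constitutive Jun relative, was at 0.06 and 0.05. Of 9 other EGR, NR4A, IER and SIK genes, none passed for genotype, with medians of 0.74 and 0.91. Nr4a3, a sister of Nr4a1, was lower in WT jejunum than in WT colon (log2 difference -2.65, standard error 0.39, edgeR adjusted p = 0.00909).

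Of 25 other primary response genes, 4 rose in colon and 1 in jejunum, and none fell, where 0.388% and 0.215% of all genes were called. In colon these were Errfi1, an inhibitor of the EGF receptor (log2 fold change 2.19, edgeR adjusted p = 0.00306), Klf2 (2.30), Cebpd (2.68) and Cebpb (2.15). Klf2 encodes a Krüppel-like factor, and Cebpd and Cebpb encode C/EBP factors of acute responses. Errfi1 also rose in jejunum (1.46, edgeR adjusted p = 0.0220). The medians of the list were 1.36 in colon and 0.95 in jejunum, where those of the 10 members were 1.38 and 1.41. Of the 10 glucocorticoid-responsive genes, 4 rose in colon (Errfi1, Mt1, Fkbp5 and Cebpd) and 3 in jejunum (Errfi1, Fkbp5 and Mt1), against the same shares of all genes. Their medians were 1.98 and 1.20. Errfi1, Cebpd, Per1 and Sgk1 are in both of these lists. Fkbp5, which encodes a chaperone of the glucocorticoid receptor, rose from 30.9 ± 12.7 to 156 ± 35.1 CPM in colon and from 44.3 ± 16.2 to 203 ± 13.7 in jejunum.

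The factors that carry signals to immediate early promoters (17 genes, among them Srf, Elk1 and Creb1) had no member past the test in either tissue, with medians of 0.23 in colon and -0.06 in jejunum. Nor had the 10 feedback inhibitors of MAP kinases, with medians of 0.43 and 0.18. Dusp1, a phosphatase of MAP kinases that is itself an early gene, came closest in colon, at 1.87 (standard error 0.35, edgeR adjusted p = 0.0516). The 11 heat shock genes had no call for genotype, and their median was -0.57 in colon and -0.01 in jejunum. Hspa1b, an inducible heat shock gene, was lower in WT jejunum than in WT colon (log2 difference -1.93, edgeR adjusted p = 0.0414).

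**Figure D3:**
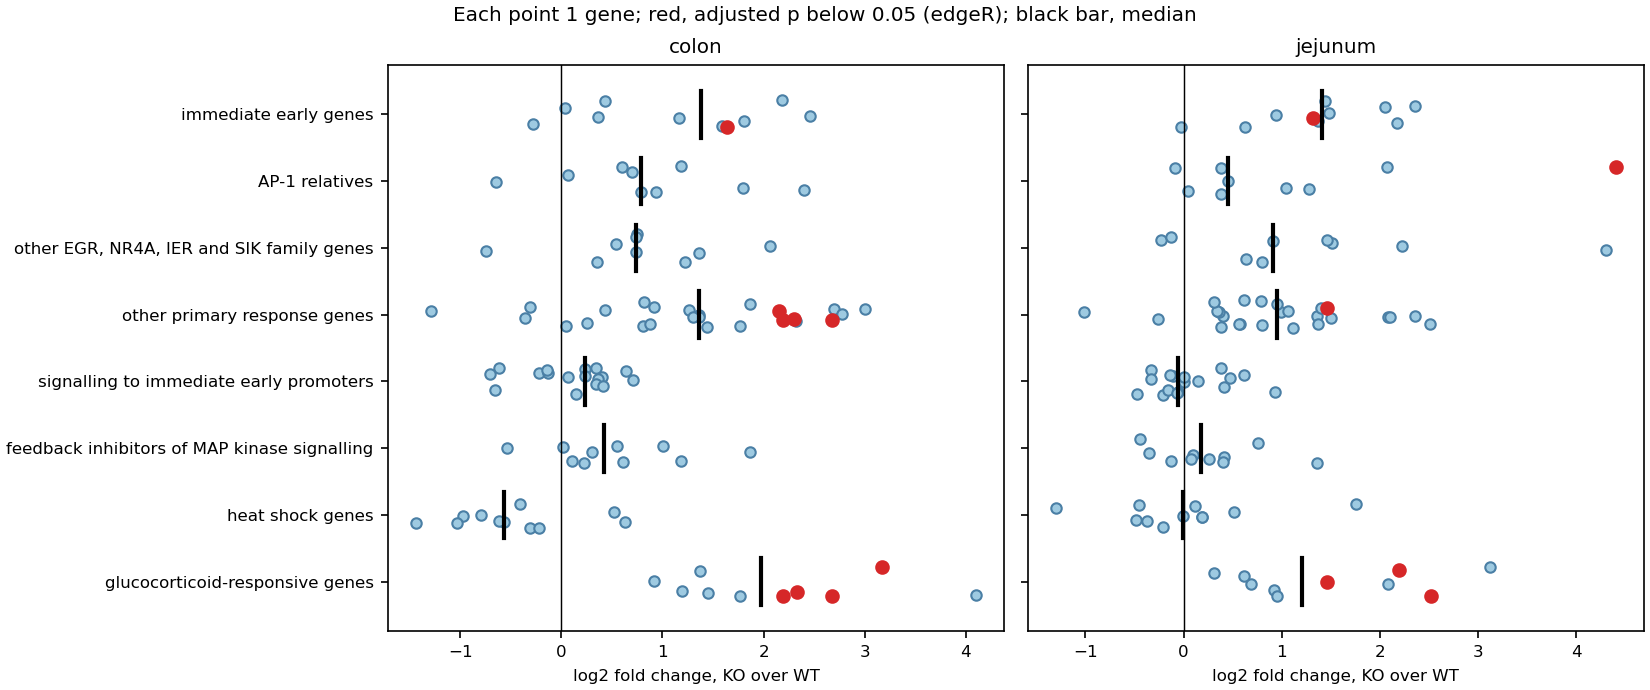
Log2 fold change, KO over WT, of each gene of 8 lists in colon and jejunum; points are genes, red points have adjusted p below 0.05, and bars are medians, with vertical jitter only for legibility. The medians of the immediate early genes (1.38 and 1.41) and the glucocorticoid-responsive genes (1.98 and 1.20) lie right of 0, and that of the heat shock genes lies left of it in colon (-0.57).

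The nuclei showed which cells of the colon carried the transcripts. After filters, 2632 WT and 1592 KO nuclei remained, with medians of 1698 and 1984 UMIs, and 11 barcodes occurred in both libraries. Clusters were made without the 10 genes and named by marker genes. They gave 847 WT and 396 KO smooth muscle-like nuclei, 509 and 188 enteric glia-like, 359 and 136 epithelial-like, 348 and 265 mesothelial-like, 176 and 156 fibroblast-like, 131 and 72 enteric neuron-like and 50 and 143 macrophage-like nuclei. Levels are CPM of UMIs, summed over the nuclei of a class. With 1 library per genotype there is no test of genotype, and the 95% intervals below (exact Poisson for levels, exact binomial for ratios) cover counting error only. The class names are rebuilt from markers and the libraries were not checked against any annotation.

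Smooth muscle-like nuclei of WT colon held little immediate early RNA, and the sum of the 10 members was higher in the KO library. All 10 members together gave 160 UMIs in WT (70.0 CPM, interval 59.6 to 81.8) and 217 in KO (152 CPM, 132 to 173), a ratio of 2.17 (1.76 to 2.67). Junb had the widest gap, with 11 UMIs (4.81 CPM) in WT and 49 (34.2 CPM) in KO, a ratio of 7.11 (3.65 to 15.2). Sik1 followed with 7 and 23 UMIs, or 3.06 and 16.1 CPM, a ratio of 5.25 (2.18 to 14.5). Ier3 had 7.88 and 20.97 CPM (ratio 2.66, 1.44 to 5.07) and Jun 17.1 and 29.4 (ratio 1.72, 1.09 to 2.73). These are the genes of the 10 whose smooth muscle interval excluded 1.

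The other members gave no clear difference in smooth muscle-like nuclei. Fos had 10 UMIs in WT and 8 in KO (4.38 and 5.59 CPM), a ratio of 1.28 (0.438 to 3.60), which was 0.955 with coarser clusters, 0.971 with finer clusters and 0.960 with doublets kept. Egr1 had 20 and 18 UMIs (ratio 1.44, 0.717 to 2.86), and those of the KO library came from 0.758% of its 396 smooth muscle-like nuclei. Nr4a1 had a ratio of 1.42 (0.904 to 2.22). Fosb (2 and 1 UMIs), Ier2 (4 and 6) and Atf3 (4 and 0) were near the floor, which for a count of 0 in KO is 2.10 CPM. Of the 8 members with at least 10 UMIs over both libraries, 4 (Junb, Ier2, Ier3 and Sik1) were at least 2-fold higher in KO, against 9.41% of 11776 genes. None was at most 1/2 of WT, against 7.21%. Ier2 is among the 4 with a ratio of 2.40 whose interval includes 1 (0.568 to 11.5). The shares are over genes of all depths from 10 UMIs up and were not matched to the depth of the members.

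Smooth muscle-like nuclei fell into 4 clusters, numbered 0, 1, 7 and 16, of which cluster 16 held 189 WT and 10 KO nuclei. Without cluster 16, a setting chosen after seeing the data, the ratio was 6.26 for Junb (2.94 to 15.3), 4.70 for Sik1 (1.75 to 15.8), 2.47 for Ier3 (1.22 to 5.31) and 1.95 for all 10 together (1.55 to 2.48). Most KO nuclei of the class were in cluster 1 (154 WT and 215 KO), where all 10 together had a ratio of 1.39 (1.004 to 1.97). In cluster 7 (343 WT and 132 KO) it was 1.84 (1.18 to 2.88), and in cluster 0 (161 WT and 39 KO) 2.59 (1.18 to 5.47). In cluster 16, with 3 UMIs of these genes in KO, it was 1.02 (0.204 to 3.17). The intervals of the 4 clusters overlap, and the difference between clusters was not tested.

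**Figure D4:**
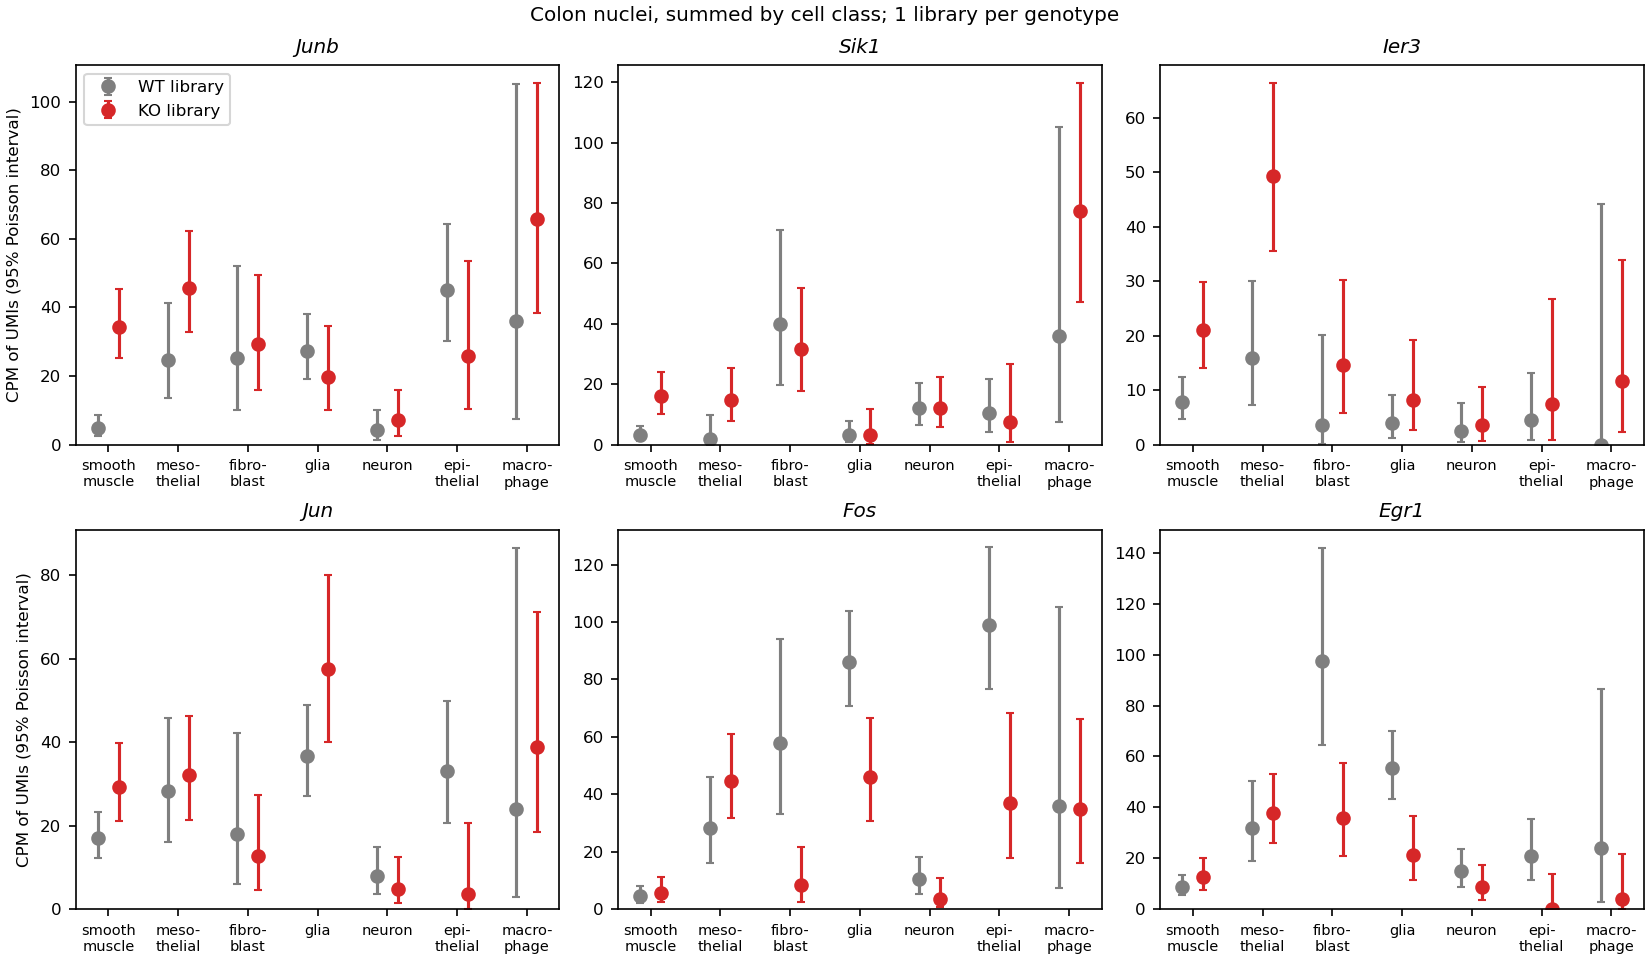
CPM of UMIs of 6 immediate early genes in colon nuclei summed by cell class, WT library in grey and KO library in red, with exact 95% Poisson intervals that cover counting error only. Junb in smooth muscle-like nuclei is at 4.81 (WT) and 34.2 (KO), while Fos in enteric glia-like nuclei is at 86.0 (WT) and 46.0 (KO).

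Outside smooth muscle the direction differed by gene and class. Fos was lower in the KO library in enteric glia-like nuclei (86.0 CPM in WT and 46.0 in KO, ratio 0.54, 0.34 to 0.82), in epithelial-like nuclei (99.0 and 37.1, ratio 0.37, 0.17 to 0.73) and in fibroblast-like nuclei (57.9 and 8.41, ratio 0.15, 0.035 to 0.45). Egr1 was lower in glia-like (55.5 and 21.4 CPM, ratio 0.39, 0.20 to 0.70) and fibroblast-like nuclei (97.7 and 35.7, ratio 0.37, 0.19 to 0.70). Mesothelial-like nuclei, from the outer lining of the gut, had more Ier3 in KO (15.9 and 49.3 CPM, ratio 3.10, 1.49 to 7.24). Their Sik1 came from 1 UMI in WT and 13 in KO, a ratio of 8.44 (1.27 to 359). Sik1 in fibroblast-like nuclei was at 39.8 CPM in WT and 31.5 in KO (ratio 0.79, 0.34 to 1.91). In macrophage-like nuclei Sik1 had 3 and 20 UMIs (ratio 2.15, 0.64 to 11.3), and in enteric neuron-like nuclei it was equal (12.1 CPM in both).

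All 10 genes together had a KO to WT ratio of 0.69 (0.55 to 0.86) in glia-like, 0.37 (0.24 to 0.56) in epithelial-like, 0.60 (0.43 to 0.83) in fibroblast-like and 1.58 (1.24 to 2.03) in mesothelial-like nuclei. It was 0.91 (0.64 to 1.27) in neuron-like and 0.98 (0.60 to 1.67) in macrophage-like nuclei. Among these 7 classes in WT, the sum was lowest in smooth muscle-like (70.0 CPM) and neuron-like nuclei (78.9), and between 168 and 275 in mesothelial-like, epithelial-like, glia-like and fibroblast-like nuclei. Over all nuclei, Fos (39.2 and 21.3 CPM, ratio 0.54, 0.44 to 0.67) and Egr1 (27.0 and 16.9, ratio 0.62, 0.49 to 0.79) were lower in KO. Ier3 (ratio 3.38, 2.46 to 4.70), Sik1 (2.16, 1.59 to 2.96) and Junb (1.78, 1.43 to 2.22) were higher. These sums include a cluster left unnamed, of 49 WT and 37 KO nuclei with medians of 7820 and 13551 UMIs. It gave 84 of 324 Fos UMIs in WT and 23 of 130 in KO, and 15 of 56 Ier3 UMIs in WT and 42 of 140 in KO. Of 10 members 2 (Ier3 and Sik1) were at least 2-fold higher over all nuclei, against 9.7% of 16757 genes, and none was at most 1/2 of WT, against 4.36%.

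Bulk colon and colon nuclei can be set side by side for each gene. Sik1, Junb and Ier3 were higher in the material labelled KO in both. Fos and Egr1 had higher means in bulk KO colon (101 ± 49.0 against 45.1 ± 31.7 CPM for Fos, and 172 ± 66.2 against 57.0 ± 23.5 for Egr1, SD, n = 3 each), and lower levels over all KO nuclei. In smooth muscle-like nuclei alone their ratios were 1.28 and 1.44, with intervals that include 1. Sums over all nuclei also depend on the mix of classes, which differed (509 WT and 188 KO glia-like, 359 and 136 epithelial-like nuclei). The part of this mix was not tested. Smooth muscle RNA was also found in glia-like nuclei. Myh11, a smooth muscle myosin, had a UMI in 25.5% of WT and 14.4% of KO glia-like nuclei (median depths of 1906 and 2289 UMIs), and in 99.1% and 98.0% of smooth muscle-like nuclei. Whether this RNA came from outside the nuclei, from doublets or from mixed clusters was not tested. The part of such RNA in the levels of the immediate early genes was not tested either.

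The nuclei matrices also held open chromatin regions, which were called separately in each library. A region overlapped the 250 bases on either side of an annotated start of 8 of 10 members in WT and in KO, where 58.6% (WT) and 50% (KO) of 20861 expressed genes had one. Ier2 and Ier3 had none. In smooth muscle-like nuclei the region at Jun held 112 CPM (of all region counts) in WT (843 bases) and 176 in KO (1107 bases), and that at Fosb 64.4 (889 bases) and 77.6 (932 bases). The region at Sik1 held 103 CPM over 1228 bases in WT (72 counts) and 31.1 over 848 bases in KO (12 counts). For the other members the WT and KO values were 58.7 and 72.5 CPM at Fos, 164.6 and 93.2 at Junb, and 88.8 and 121.6 at Atf3. Egr1 had 186.1 and 194.1, and Nr4a1 176.1 and 160.5. Since the bounds differ between the libraries, these counts were not compared between genotypes.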

How the data were processed

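Bulk RNA-seq of 12 muscularis libraries and 2 libraries of colon nuclei were used. The deposited bulk table holds raw counts per gene; STAR 2.0.4b, featureCounts 1.4.5 and the build GRCm38 are named in the submitters' processing notes, and no source at hand gives the use of strand. The authors' nuclei matrices hold counts from Cell Ranger, per the labels and file headers. Their gene values were all even numbers and were divided by 2, and the result was taken as UMIs. This halving is an assumption, and the counting intervals of the nuclei depend on it. The members and lists were chosen with earlier results of these data known.

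Of 40757 rows, 276 duplicates were dropped, and 20886 genes passed filterByExpr. Groups were fitted together with edgeR 4.0.16 (TMM, robust quasi-likelihood test, R 4.3.3) with Benjamini-Hochberg adjustment. Calls had an adjusted p below 0.05. On data simulated for colon over 20886 genes, 64 of 100 genes changed by 2 and 78 of 100 changed by 3 (log2) were recovered, with 8 false calls among the other genes. Alternatives were DESeq2 1.42.0, limma voom 3.58.1, other scalings and filters, the groups compared alone, a replicate block and leave-outs. Named genes were the 10 members, called genes of the lists and the 5 genes most alike.

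Nuclei needed 500 UMIs, 300 genes and at most 5% mitochondrial UMIs. Scrublet marked 7 WT and 2 KO nuclei, so few that doublets may remain. Clusters were made with scanpy 1.11.5 (3000 variable genes, 30 components, resolution 1). Intervals and floors (3 counts) cover counting error only. All 14 libraries were assigned to groups by their labels.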

Additional observations from a re-analysis of the deposited data

How the results depend on the processing

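Most values of single members counted as the same under the alternatives (822 did, 16 gained a call, 14 lost one and 32 turned direction). For bulk values, the same meant that direction and side of the threshold were both kept. Ratios in smooth muscle-like nuclei were included, and counted as the same when inside the interval of the main setting. That rule did not check direction. The ratio of Fos turned from 1.28 to 0.955 with coarser clusters, and that of Fosb from 0.80 to 1.02 without cluster 16. Members called in colon (1 by edgeR) numbered 4 with DESeq2, 0 when only the groups compared were fitted, and 0 to 2 when 1 library was left out. In jejunum (1 by edgeR) they numbered 5 with DESeq2, 0 with total counts, 2 with no filter, 2 with a minimum of 1 CPM in all libraries of a group, 0 with only the groups compared, and 0 to 2 with 1 library left out. Between the WT tissues (0 by edgeR) they numbered 2 with DESeq2, 1 with only the groups compared and 0 to 0 with 1 library left out. For colon, jejunum and the WT tissues, DESeq2 called 4.6%, 3.85% and 5.55% of all genes, where edgeR called 0.388%, 0.215% and 1.56%. Counts of members under the other settings are given without that share and describe the members only. Over all genes, same-tag correlations (of log2 CPM less its group mean) were 0.1, -0.008 and 0.061 in WT and -0.163 and -0.0945 in KO. Different-tag pairs ranged from -0.179 to 0.148 in WT and from -0.39 to 0.348 in KO. The same-tag values lay inside these ranges, although the mean of the 10 members had the same order by tag in both tissues. Whether tags pair the samples cannot be told from these values. With the replicate block 1 member was called in each tissue, and 94 genes in colon and 77 in jejunum. The causes were not tested. In smooth muscle-like nuclei, the KO to WT ratio of Sik1 ranged from 3.81 to 5.25 over other filters, totals and clusterings, and that of Junb from 6.80 to 7.12.

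Directions turned for values that were not called. The log2 fold change of Fosb in colon was -0.051 with limma voom, -0.029 with the replicate block and -0.126 without both KO colon t4 and KO jejunum m1, and with 1 library left out it ranged from -0.143 to 0.333. Atf3 in colon ranged from -0.55 to 0.0345 with 1 library left out. Jun in jejunum was 0.0672 with limma voom and 0.0559 with the replicate block, and ranged from -0.278 to 0.443 with 1 library left out. The difference between tissues for Junb was 0.136 with the replicate block and 0.414 without both of those libraries, and ranged from -0.609 to 0.483 with 1 left out. For Egr1 it was 0.523 without both, and ranged from -1.18 to 0.254. For Nr4a1 it ranged from -0.0833 to 0.578. For Ier2 it was 0.0433 without both and 0.057 with the replicate block. For Ier3 it was 0.102 without both, and ranged from -1.50 to 0.28. Between WT tissues, Jun ranged from -0.704 to 0.0163 with 1 library left out, and Sik1 was -0.0363 with total counts.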
